A study of Mus musculus with 6 samples.

Results

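The insulin-like growth factor (IGF) family was followed here through 10 genes, which were the rows of the count table named Igf1, Igf2, Igf1r, Igf2r, Igfbp2, Igfbp3, Igfbp4, Igfbp5, Igfbp6 and Igfbp7. They were 10 of the 23420 genes in the table. They were chosen by their place in the family and selected on measured values, the counts in sgp53 against sgNTC, which were already known. For that reason their levels and fold changes in that contrast are a description and no test is drawn from them. All 10 had counts in at least 1 library. Of the 10, 8 passed the filter on low counts and entered the fit across 13044 genes, and Igf1 and Igfbp2 did not.

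IGF1 and IGF2 are secreted ligands that bind the receptor tyrosine kinase IGF1R and, through it, signal for growth and survival by way of PI3K, AKT and mTOR and by way of Ras and ERK. IGF2R carries no kinase domain, takes IGF2 up for breakdown in lysosomes and also carries lysosomal enzymes. The IGF binding proteins hold the ligands outside the cell, where proteases release them, and fibroblasts are a known source of several of them. In human cells p53 is known to induce IGFBP3 and to repress IGF1R.

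The sgp53 group held E1A;HrasG12V mouse embryonic fibroblasts of lines 1, 2 and 3 that carried a guide RNA against the p53 gene, labelled sgp53(1). The labels name the genotype of sgp53 lines 1 and 3 as p53 null, and that of line 2 as functionally inactive. The sgNTC group held the same 3 lines with a non-targeting guide, labelled p53 wild-type. Both groups shared the E1A oncogene of adenovirus, the activated HrasG12V, a mixed 129/Sv-C57BL/6 strain background and growth in 5% oxygen. Lines 2 and 3 share a number in the library names that line 1 does not carry. Each line gave 1 library per guide, which made 3 libraries per group. A single p53 guide was used, and the labels do not say whether the cells were pools or clones.

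Library totals were 29564516 to 35860866 counts in sgp53 and 27503577 to 32536641 counts in sgNTC. Levels are CPM, the count scaled to the TMM-normalized library total, and errors are the SD over a group's 3 libraries unless named otherwise. Trp53, the targeted gene, had 71.1, 72.0 and 113 CPM in sgp53 lines 1, 2 and 3, against 206, 277 and 253 CPM in sgNTC (log2 fold change -1.52, SE 0.21, edgeR adjusted p = 0.0168). That call was lost without sgp53 line 1 (edgeR adjusted p = 0.0679), sgp53 line 2 (0.0507) or sgNTC line 3 (0.0721). It was also lost in each fit without both libraries of a line, where the adjusted p reached 0.112, and was kept in the other 8 of 14 alternatives. Cdkn1a, the p21 gene that p53 induces, averaged 86.3 ± 13.6 CPM in sgp53 and 697 ± 44.1 CPM in sgNTC (edgeR adjusted p = 0.000509). The sgp53 library of line 3 stood apart: it held 3338 CPM of the ribosomal RNA precursor Rn45s, against 636 to 864 CPM in the other 5 libraries. It also held 6.81 CPM of Sox2, against 0.00 to 0.584 CPM elsewhere. Of the 9 fibroblast markers checked against the label, Vim had 2502 to 3001 CPM in sgp53 and 2754 to 3354 CPM in sgNTC, Lum had 1 count in all libraries together, and 7 of the 8 tested had a positive fold change.

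In the sgp53 cells, RNA of the signalling receptor Igf1r and of the binding proteins Igfbp5 and Igfbp7 was higher in every line, and RNA of the clearance receptor Igf2r differed between the groups by less than its spread. Igf1r was 1.44-fold higher in the fit, Igfbp7 was 7.33-fold higher and Igfbp5 had 547 counts in sgp53 against 3 counts in sgNTC. Igf2, Igfbp3 and Igfbp4 were higher in sgp53 within each line, with most of their sgp53 RNA in the library of line 3, and Igfbp6 was higher in that library alone. Igfbp3 had few counts, and in line 2 it differed by no more than 17 counts in sgp53 against 11 counts in sgNTC. Of the 8 tested members, 3 (Igf1r, Igfbp5 and Igfbp7) passed an edgeR adjusted p of 0.05 as higher in sgp53 and 0 as lower. DESeq2 called Igf2 as well, which could not have entered the fit on its sgNTC counts alone, so nothing is read from that call. Of all 13044 genes, 6.45% passed in either direction, 2.76% as higher and 3.69% as lower, and because the list was chosen with this contrast known, nothing is read from the difference. The level of each gene in every library is plotted.

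**Figure D1:**
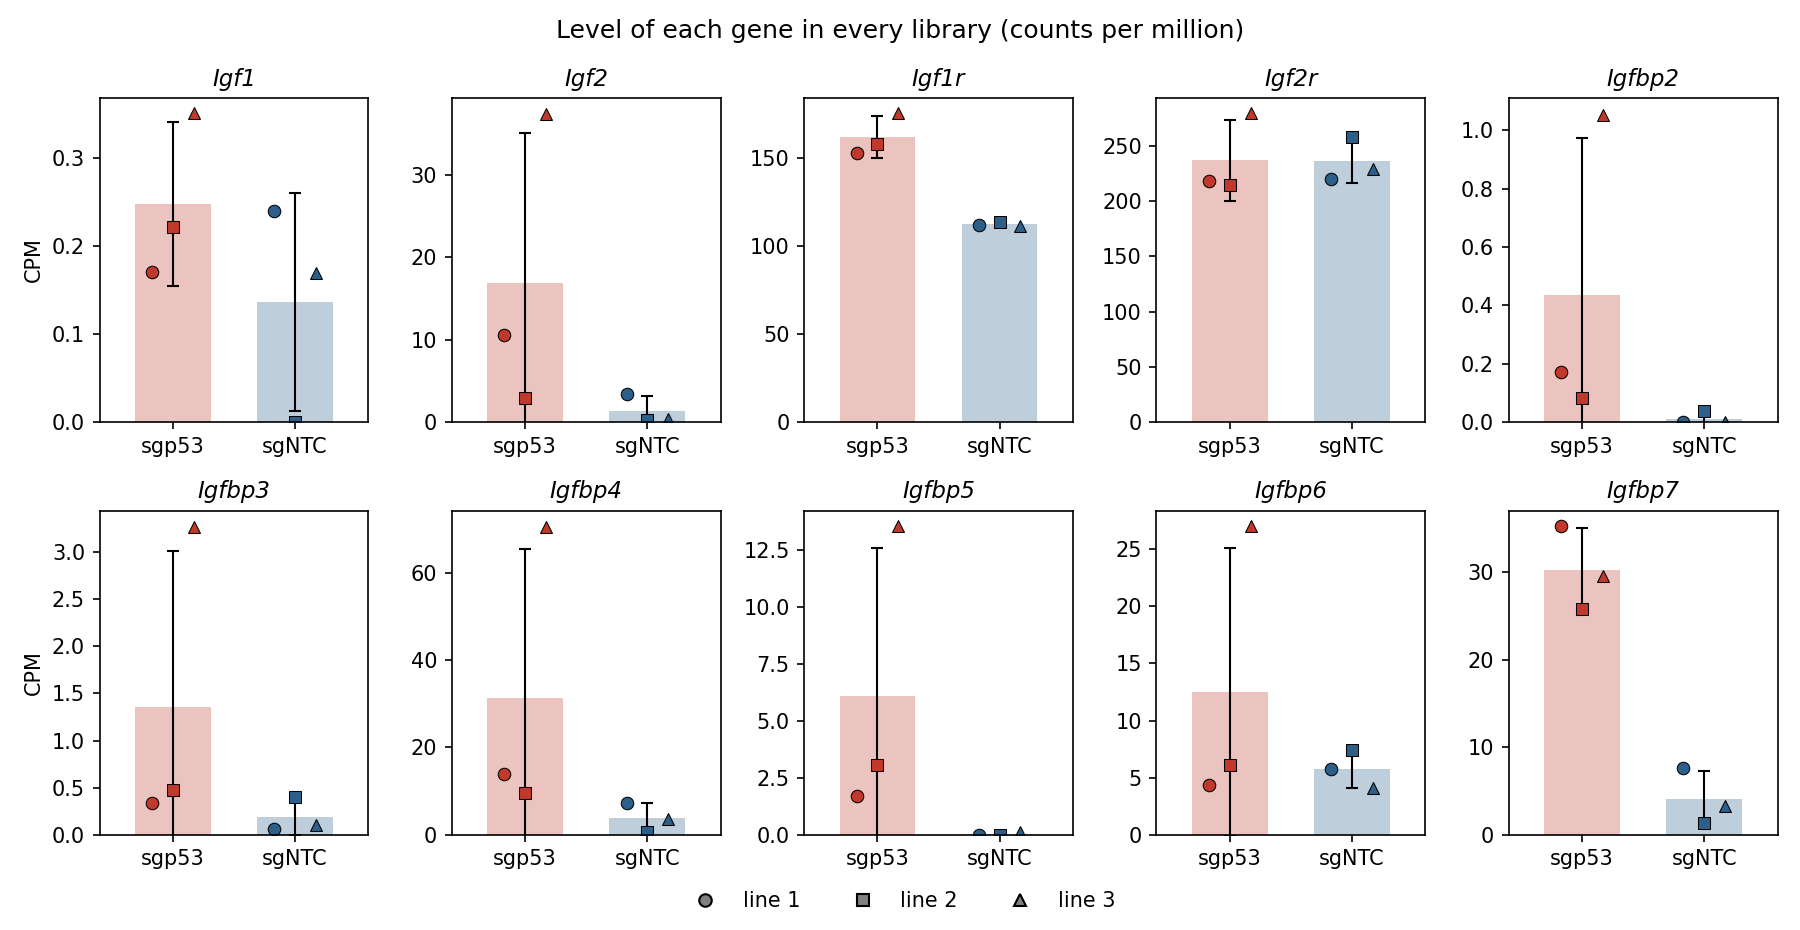
CPM of the 10 genes in sgp53 (left of each panel, red) and sgNTC (right, blue), with bars for the mean, error bars for the SD over 3 libraries (drawn down to 0 at most) and a marker per line. Igf1r separates the groups with a narrow spread (152.9 to 175.5 CPM in sgp53, 111.6 to 113.9 CPM in sgNTC), whereas sgp53 line 3 is the highest library in 9 of the 10 panels.

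The start regions of Igf1r, Igfbp5 and Igfbp7 are shown because they differ in base composition although the RNAs were all higher in sgp53. The windows run from 250 bases before to 50 bases after the RefSeq transcript start on GRCm38.p6, and each is written 5′ to 3′ on the strand of its gene. Capitals mark every match to GGGCGG or TATAAA on either strand, and any match to the p53 response element decamer.
Igf1r, chr7:67952007-67952306, plus strand: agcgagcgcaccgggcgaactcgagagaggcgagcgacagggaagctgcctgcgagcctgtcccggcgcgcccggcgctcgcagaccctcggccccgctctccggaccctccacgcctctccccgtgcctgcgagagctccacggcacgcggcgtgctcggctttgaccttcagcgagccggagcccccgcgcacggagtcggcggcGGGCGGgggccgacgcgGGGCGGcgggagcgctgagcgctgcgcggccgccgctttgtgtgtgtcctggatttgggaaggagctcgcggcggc
Igfbp5, chr1:72874816-72875115, minus strand: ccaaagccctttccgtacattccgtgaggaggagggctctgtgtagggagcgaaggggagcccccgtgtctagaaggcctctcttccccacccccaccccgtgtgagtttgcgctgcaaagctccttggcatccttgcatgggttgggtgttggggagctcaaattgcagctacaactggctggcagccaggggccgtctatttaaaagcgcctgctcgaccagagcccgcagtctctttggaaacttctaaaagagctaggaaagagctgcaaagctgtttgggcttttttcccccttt
Igfbp7, chr5:77407996-77408295, minus strand: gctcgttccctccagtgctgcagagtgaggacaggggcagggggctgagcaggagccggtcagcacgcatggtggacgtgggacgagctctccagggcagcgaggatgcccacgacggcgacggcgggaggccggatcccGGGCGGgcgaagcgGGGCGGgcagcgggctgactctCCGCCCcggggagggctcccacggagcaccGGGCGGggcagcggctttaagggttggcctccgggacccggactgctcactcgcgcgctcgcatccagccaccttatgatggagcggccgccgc
The Igf1r window was 76% G and C with 48 CpG dinucleotides and 2 GGGCGG matches. The Igfbp7 window was 73.3% G and C, with 33 CpG dinucleotides and 4 matches. The Igfbp5 window was 56.3% G and C, with 10 CpG dinucleotides and no match to either motif. Over all 32851 RefSeq windows of this length the median was 52.7% G and C and 7 CpG dinucleotides, 35.7% held GGGCGG and 13.6% held TATAAA. The p53 decamer had no match in these windows, and among the members it occurred in 1 of the 4 start windows of Igf2. It occurred in 8.36% of all windows, and a window without it says nothing about p53 binding elsewhere.

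Of the ligands, Igf1 was barely detected and Igf2 was uneven. Igf1 (chromosome 10, 87858265 to 87937047, plus strand), which growth hormone induces in liver, had 5, 8 and 10 counts in sgp53 lines 1, 2 and 3, against 8, 0 and 5 counts in sgNTC. The 2 groups overlapped, and the ratio of the summed counts was 1.71 (95% exact interval 0.829 to 3.67, which covers counting error alone). Igf2 (chromosome 7, 142650768 to 142666816, minus strand), the imprinted growth factor of the embryo, had 10.5, 2.86 and 37.4 CPM in sgp53 lines 1, 2 and 3, against 3.46, 0.290 and 0.373 CPM in sgNTC. The sgp53 library was the higher one in every line, yet sgp53 line 2 lay below sgNTC line 1, so the groups overlapped. Group means were 16.9 ± 18.1 CPM in sgp53 and 1.37 ± 1.805 CPM in sgNTC, a log2 fold change of 3.59 (SE 1.26). The differences within lines 1, 2 and 3 were 1.59, 3.04 and 6.42 on the log2 scale. The log2 fold change was 2.27 without sgp53 line 3 and 5.65 without sgNTC line 1.

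H19, the noncoding RNA that lies 72.6 kb from Igf2 and is expressed from the other parental allele, is no member and was tested. It had 131, 125 and 456 CPM in sgp53 lines 1, 2 and 3, against 15.4, 0.942 and 9.31 CPM in sgNTC, with no overlap between groups. Its log2 fold change was 4.78 (SE 0.97, edgeR adjusted p = 0.0421), and it was called neither with the line as a block (edgeR adjusted p = 0.0633) nor without any 1 of the 6 libraries (0.0558 to 0.146). In the GENCODE M21 annotation the exons of Igf2 share 98 bases with Igf2os on the opposite strand. They share 3596 of 5723 bases with Gm49394 on the same strand, a name that is not in the table. Igf2os is in the table under the older name Igf2as, with 6 counts in sgp53 and 2 counts in sgNTC, and was not tested.

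The receptors differed from each other. Igf1r (chromosome 7, 67952257 to 68233668, plus strand) had 153, 158 and 176 CPM in sgp53 lines 1, 2 and 3, against 112, 114 and 112 CPM in sgNTC. Every sgp53 library lay above every sgNTC library, and the sgNTC libraries were within 3 CPM of each other. The log2 fold change was 0.53 (SE 0.06), with differences of 0.45, 0.48 and 0.65 within lines 1, 2 and 3. Over the 14 alternatives the log2 fold change stayed between 0.46 and 0.57, and the threshold was missed without sgNTC line 3 and in the 3 fits with both libraries of a line left out.

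Igf2r (chromosome 17, 12682406 to 12769706, minus strand) had 218, 214 and 279 CPM in sgp53 lines 1, 2 and 3, against 220.05, 258 and 229 CPM in sgNTC. The groups overlapped, with sgp53 line 3 the highest library and sgp53 line 2 the lowest. The log2 fold change was 0.01 (SE 0.12), and the differences within lines were -0.01, -0.27 and 0.29. Airn, the imprinted noncoding RNA that runs antisense through 28.4 kb of the Igf2r gene span, had 26 to 36 counts per library, against 6380 to 7958 counts for Igf2r. Per kilobase of exon, the ratio of Igf2r to Igf1r was 2.57, 2.44 and 2.87 in sgp53 lines 1, 2 and 3, against 3.55, 4.09 and 3.70 in sgNTC. The ratio averaged 2.63 ± 0.221 in sgp53 and 3.78 ± 0.279 in sgNTC (SD, n = 3 each), and the groups did not overlap. With Igf2r at a log2 fold change of 0.01, this ratio largely repeats the difference of Igf1r. Insr, the insulin receptor, which forms hybrid receptors with IGF1R, averaged 54.7 ± 7.73 CPM in sgp53 and 62.3 ± 7.77 CPM in sgNTC (edgeR adjusted p = 0.388). The per-kilobase ratio of Igf1r to Insr averaged 2.46 ± 0.422 in sgp53 and 1.496 ± 0.208 in sgNTC.

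Among the binding proteins, Igfbp7 had an even level in sgp53, while Igfbp5 was close to absent in sgNTC. Igfbp7 (chromosome 5, 77349240 to 77408045, minus strand), a secreted protein of low affinity for IGFs, had 35.2, 25.7 and 29.6 CPM in sgp53 lines 1, 2 and 3, against 7.60, 1.38 and 3.28 CPM in sgNTC. The lowest sgp53 library was more than 3 times the highest sgNTC library, and sgp53 line 3 did not lead. The log2 fold change was 2.87 (SE 0.56), with differences of 2.20, 4.16 and 3.15 within lines 1, 2 and 3. It was 2.89 without sgp53 line 3, and 2.47 to 3.69 over the 14 alternatives. Its call, a description like the others, was lost without any 1 sgp53 library, without sgNTC line 3 and without any line. The exons of Igfbp7 share 85 bases with Polr2b on the opposite strand, out of 1209 exon bases, and whether the authors' counting used strand is not given in the sources used here.

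Igfbp5 (chromosome 1, 72858065 to 72874865, minus strand), which binds IGFs and also the extracellular matrix, had 50, 111 and 386 counts in sgp53 lines 1, 2 and 3, against 0, 0 and 3 counts in sgNTC. In CPM these were 1.71, 3.09 and 13.5 in sgp53, against 0, 0 and 0.102 in sgNTC, and the groups did not overlap. The ratio of the summed counts, scaled to library size, was 176 (95% exact interval 59.8 to 855). That interval covers counting error alone and not the spread between libraries, so no test is drawn from it. The line 3 library held 73.9% of the summed CPM of the sgp53 group. Igfbp5 entered the fit through its sgp53 counts alone, so nothing is read from its call, which was lost with limma-voom, without any 1 library other than sgp53 line 3, and without any line. Igfbp2 (chromosome 1, 72824480 to 72852474, plus strand), its neighbour at a distance of 5.6 kb in tail-to-tail orientation, had 5, 3 and 30 counts in sgp53, against 0, 1 and 0 counts in sgNTC. Those counts were too few for the fit, and their ratio was 36.6 (95% exact interval 6.19 to 1484.5), with 30 of the 38 sgp53 counts in line 3. This interval, too, leaves out the spread between libraries.

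Igfbp3, Igfbp4 and Igfbp6 had most of their sgp53 RNA in the library of line 3. Igfbp4 (chromosome 11, 99040005 to 99052655, plus strand), a substrate of the protease PAPP-A, had 13.9, 9.56 and 70.5 CPM in sgp53 lines 1, 2 and 3, against 7.36, 0.580 and 3.66 CPM in sgNTC. The groups did not overlap, but sgp53 line 3 was 6.01 times the mean of the other sgp53 libraries. Its log2 fold change was 3.00 (SE 1.07), with 1.59 without that library and 3.87 without sgNTC line 1. Igfbp3 (chromosome 11, 7206086 to 7215498, minus strand), the main IGF carrier of serum, had 0.341, 0.472 and 3.26 CPM in sgp53, against 0.0601, 0.399 and 0.102 CPM in sgNTC. These were 10, 17 and 93 counts in sgp53, against 2, 11 and 3 counts in sgNTC. The differences within lines 1, 2 and 3 were 1.70, 0.21 and 4.32 on the log2 scale. Here sgp53 line 1 lay below sgNTC line 2, so the groups overlapped, and the log2 fold change of 2.87 (SE 1.13) was 1.15 without sgp53 line 3 and 4.01 without sgNTC line 2. Its neighbour Igfbp1, 3.5 kb away, had 0 counts in all libraries.

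Igfbp6 (chromosome 15, 102144186 to 102149512, plus strand), which prefers IGF2 over IGF1, had 4.37, 6.14 and 27.02 CPM in sgp53 lines 1, 2 and 3, against 5.74, 7.43 and 4.10 CPM in sgNTC. The sgp53 library was the lower one in lines 1 and 2 and the higher one in line 3. The log2 fold change was 1.12 (SE 0.70), and -0.13 without sgp53 line 3. Of the 8 tested members, 4 had groups that did not overlap, with sgp53 higher (Igf1r, Igfbp4, Igfbp5 and Igfbp7). Of all tested genes 17.8% did so, and 36.8% did not overlap in either direction. The members were chosen with this contrast known, so nothing is read from the difference.

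**Figure D2:**
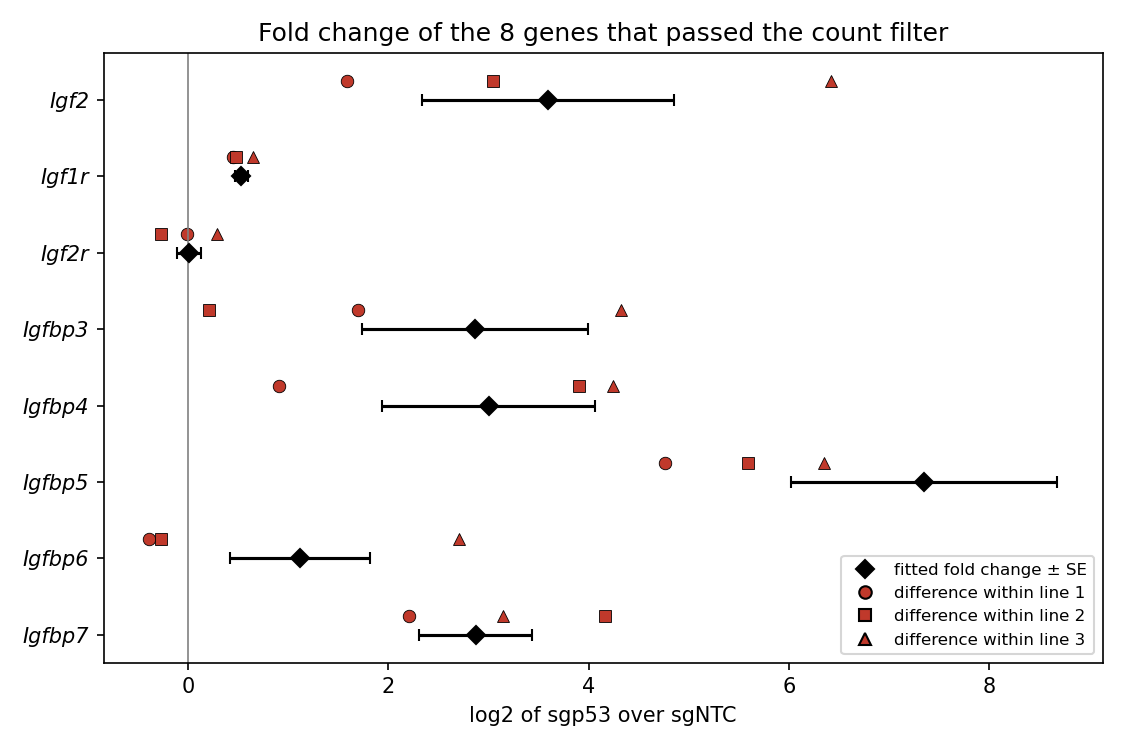
Log2 of sgp53 over sgNTC for the 8 tested genes, with the fitted fold change and its SE (black diamonds) and the log2 CPM difference within each line (red markers, prior count of 2). Igf1r lies at 0.53 with a narrow error and Igf2r at 0.01, while Igfbp6 falls on both sides of 0 (-0.39, -0.27 and 2.70 in lines 1, 2 and 3). The fitted value of Igfbp5 rests on 3 sgNTC counts and depends on the prior count.

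The 6 binding protein RNAs together were more abundant in sgp53 and differently composed. Per kilobase of exon their sum was 36.7, 29.7 and 68.6 CPM in sgp53 lines 1, 2 and 3, against 13.1, 8.10 and 7.28 CPM in sgNTC. The lowest sgp53 sum was above the highest sgNTC sum, also with line 3 left out. In lines 1 and 2 most of the difference was Igfbp7, with 29.1 and 21.3 CPM per kilobase in sgp53, against 6.29 and 1.14 in sgNTC. The result without line 3 therefore repeats that of Igfbp7. Igfbp7 made up 79.4%, 71.7% and 35.7% of the sum in sgp53, against 47.9%, 14.1% and 37.3% in sgNTC. Igfbp6 made up 10.7%, 18.6% and 35.4% in sgp53, against 39.3%, 82.5% and 50.6% in sgNTC, so its share was lower in sgp53 in each line. In line 3 that lower share went with a higher Igfbp6 level, 24.3 CPM per kilobase in sgp53 against 3.68 in sgNTC. The share of Igfbp7 was above that of Igfbp6 in every sgp53 library, narrowly so in line 3, and in 1 of the 3 sgNTC libraries.

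**Figure D3:**
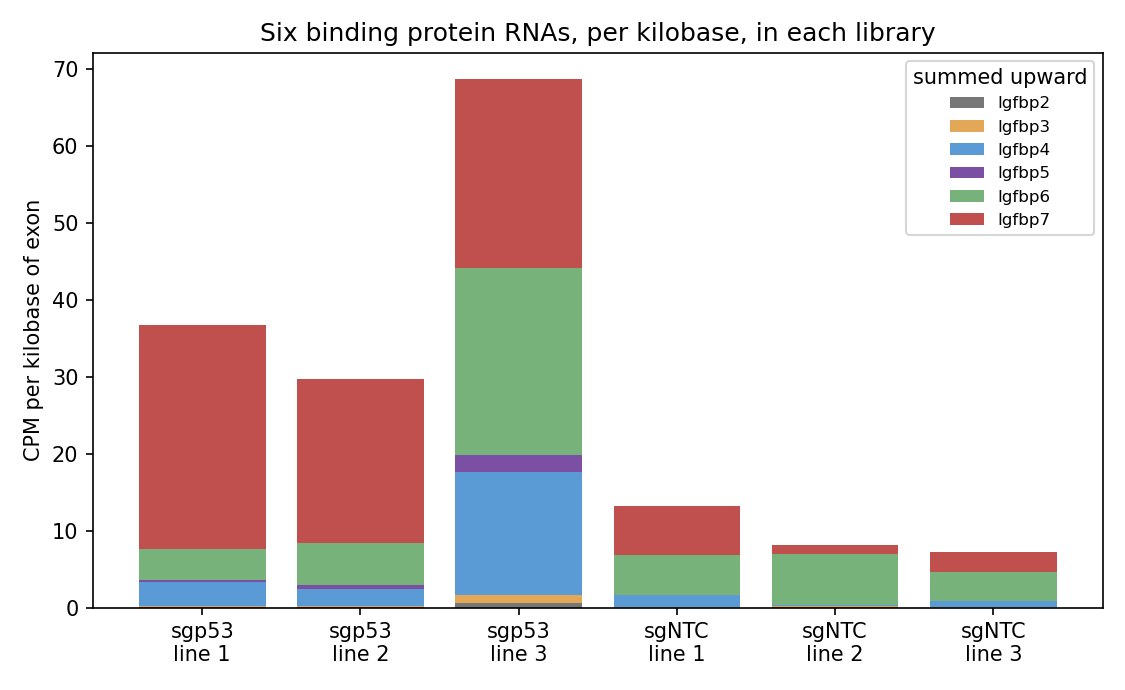
CPM per kilobase of exon of Igfbp2 to Igfbp7, stacked, for the 3 sgp53 libraries (left) and the 3 sgNTC libraries (right). The stack reaches 29.7 to 68.6 in sgp53 and 7.28 to 13.1 in sgNTC, with Igfbp7 the largest segment in each sgp53 library.

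Levels per kilobase of exon put Igf2r first in sgNTC and put Igf2r and Igfbp7 together at the top in sgp53, with a different order below. In sgp53 Igf2r (25.5 ± 3.93 CPM per kilobase) and Igfbp7 (25.0 ± 3.95) did not differ beyond their spread. Igfbp6 (11.3 ± 11.3), Igf1r (9.66 ± 0.704) and Igfbp4 (7.09 ± 7.70) came next and overlapped each other. Igf2 (2.96 ± 3.17), Igfbp5 (1.02 ± 1.08), Igfbp3 (0.434 ± 0.527), Igfbp2 (0.236 ± 0.290) and Igf1 (0.0250 ± 0.00937) followed. In sgNTC Igf2r (25.3 ± 2.14 CPM per kilobase) stood clear of Igf1r (6.70 ± 0.0743). Igfbp6 (5.18 ± 1.497) overlapped both Igf1r and Igfbp7 (3.38 ± 2.64). Igfbp4 (0.876 ± 0.769) and Igf2 (0.240 ± 0.315) were lower, and the other 4 were below 0.1. Exon lengths came from GENCODE M21 and take all annotated exons as expressed, which the counts cannot show.

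Much of the variation lay within the groups. The SD of log2 CPM over the 3 sgp53 libraries was 1.39 to 1.84 for Igf2, Igfbp3, Igfbp4, Igfbp5 and Igfbp6, and 0.10 to 0.23 for Igf1r, Igf2r and Igfbp7, against a median of 0.13 over all tested genes. In sgNTC the SD was 1.83 for Igf2, 1.82 for Igfbp4, 1.21 for Igfbp7 and 0.02 for Igf1r, against a median of 0.13. The sgp53 library of line 3 was the highest of the 6 for 7 of the 8 tested members and for 23.5% of all tested genes. Because the members were chosen with sgp53 against sgNTC known, nothing is read from that difference. The part of this library in the levels of Igf2 and of Igfbp2 to Igfbp6, beside its Rn45s and Sox2 levels, was not tested.

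Differences between the lines, which the choice of members did not use, were tested with the guide in the model. EdgeR called 0 of 13044 genes and 0 of the 8 members, whose adjusted p was 0.968 for each. At the unadjusted edgeR level of 0.05, 461 genes (3.53%) and 1 member passed. The member was Igfbp5, which entered the fit through its sgp53 counts alone, so nothing is read from its passing. DESeq2 called 67 of 12791 genes (0.524%) and 0 members. With 2 libraries per line, a miss in this test does not show that the lines were alike.

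Genes around the family were read from 7 lists, chosen with earlier results known and tested over all genes. Of 73 tested genes, 6 were higher in sgp53 and 3 lower (12.3% called, against 6.45% of all genes). Their median log2 fold change was 0.05, against -0.01 for all tested genes. Because the lists were chosen with earlier results known, nothing is read from these differences. Among proteases of the binding proteins and their inhibitors, 3 of 8 were higher and 0 lower, with a median of 0.88. Pappa, the PAPP-A gene, rose to 3.57 ± 1.03 CPM in sgp53, against 0.241 ± 0.207 CPM in sgNTC (log2 fold change 3.83, SE 0.66, edgeR adjusted p = 0.0286). Its counts were 102, 93 and 132 in sgp53 lines 1, 2 and 3, against 15, 1 and 7 in sgNTC. It could not have entered the fit on its sgNTC counts alone, so nothing is read from its call or from its part in the counts and medians above. Pappa2, of the same list, had 5 counts in sgp53 against 24 counts in sgNTC and was not tested. Adam12, a metalloprotease that cleaves human IGFBP3 and IGFBP5, rose to 21.0 ± 8.24 CPM in sgp53, against 1.67 ± 1.24 CPM in sgNTC (log2 fold change 3.64, edgeR adjusted p = 0.0263). Adamts1, a secreted metalloprotease, rose to 45.8 ± 9.94 CPM in sgp53, against 14.1 ± 4.24 CPM in sgNTC (log2 fold change 1.69, edgeR adjusted p = 0.0236). With the line as a block, Adam12 was still called (edgeR adjusted p = 0.0319), and Pappa (0.0542) and Adamts1 (0.0671) were not.

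In the relay below the receptor fold changes were within 1 log2 unit of 0. None of the 15 tested receptor substrates and adaptors was called by edgeR (2 at an unadjusted p under 0.05, 1 by DESeq2, 0 by limma-voom), with a median log2 fold change of -0.02. Grb10, an adaptor that dampens the receptor, averaged 476 ± 84.7 CPM in sgp53 and 378 ± 101 CPM in sgNTC (edgeR adjusted p = 0.35), and the adaptor Crk averaged 219 ± 2.54 CPM in sgp53 and 228 ± 12.5 CPM in sgNTC (0.504). Of 30 tested genes of the PI3K, AKT and mTOR relay, edgeR called 1 as higher and 3 as lower, with a median of 0.00. At an unadjusted p under 0.05 edgeR passed 8, while DESeq2 called 6 and limma-voom 3. Over all tested genes edgeR called 2.76% as higher and 3.69% as lower, and nothing is read from the difference. Foxo3, a transcription factor that AKT inactivates, fell to 32.6 ± 5.396 CPM in sgp53, against 60.8 ± 8.64 CPM in sgNTC (log2 fold change -0.90, SE 0.15, edgeR adjusted p = 0.0281, blocked 0.0444). Akt1s1, which encodes the mTOR inhibitor PRAS40, rose to 121 ± 3.67 CPM in sgp53, against 92.1 ± 9.07 CPM in sgNTC (log2 fold change 0.39, edgeR adjusted p = 0.045, blocked 0.0671).

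Of 7 tested genes whose proteins share the amino-terminal domain of the binding proteins, all 7 had a positive fold change, with a median of 1.23, and 1 was called. Wisp1, a matricellular protein of the CCN family, rose to 31.5 ± 5.61 CPM in sgp53, against 13.4 ± 4.72 CPM in sgNTC (edgeR adjusted p = 0.0484, blocked 0.0792). With the line as a block the call in this list was Esm1, the endocan gene, named after its values were seen (edgeR adjusted p = 0.0212, and 0.125 without the block). Esm1 had 0.888, 1.00 and 140 CPM in sgp53 lines 1, 2 and 3, against 0.0601, 0.0362 and 0.982 CPM in sgNTC, so nearly all of it lay in sgp53 line 3. Wisp2, also named after its values were seen, had 11, 30 and 103 counts in sgp53, against 4, 2 and 2 counts in sgNTC. Wisp2 and Esm1 could not have entered the fit on their sgNTC counts alone, so nothing is read from their positive sign. The list on IGF messenger RNA binding and the Igf2 and Igf2r loci also held the chromatin proteins Hmga1 and Hmga2. Of its 8 tested genes H19 alone was called, and the median was 0.17. In the growth hormone axis, edgeR called 0 of 4 tested genes (1 at an unadjusted p under 0.05, 0 by DESeq2, 0 by limma-voom). Its receptor Ghr averaged 72.9 ± 27.4 CPM in sgp53 and 62.5 ± 2.32 CPM in sgNTC, with an edgeR adjusted p = 0.591. The kinase Jak2 averaged 48.5 ± 5.27 CPM in sgp53 and 59.9 ± 3.43 CPM in sgNTC (edgeR adjusted p = 0.0965). Ins1, Ins2, Gh and Adam28 had 0 counts. The 9 calls over the 7 lists became 0 without sgp53 line 1 or sgNTC line 3, 2 without sgp53 line 2, 1 without sgp53 line 3, 3 without sgNTC line 2 and 8 without sgNTC line 1. With the line as a block 3 genes were called, of which 2 (Adam12 and Foxo3) were among the 9. Over the 14 alternatives the highest adjusted p of each of the 7 genes called and named from these lists lay between 0.136 (Adamts1) and 0.235 (Akt1s1).

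**Figure D4:**
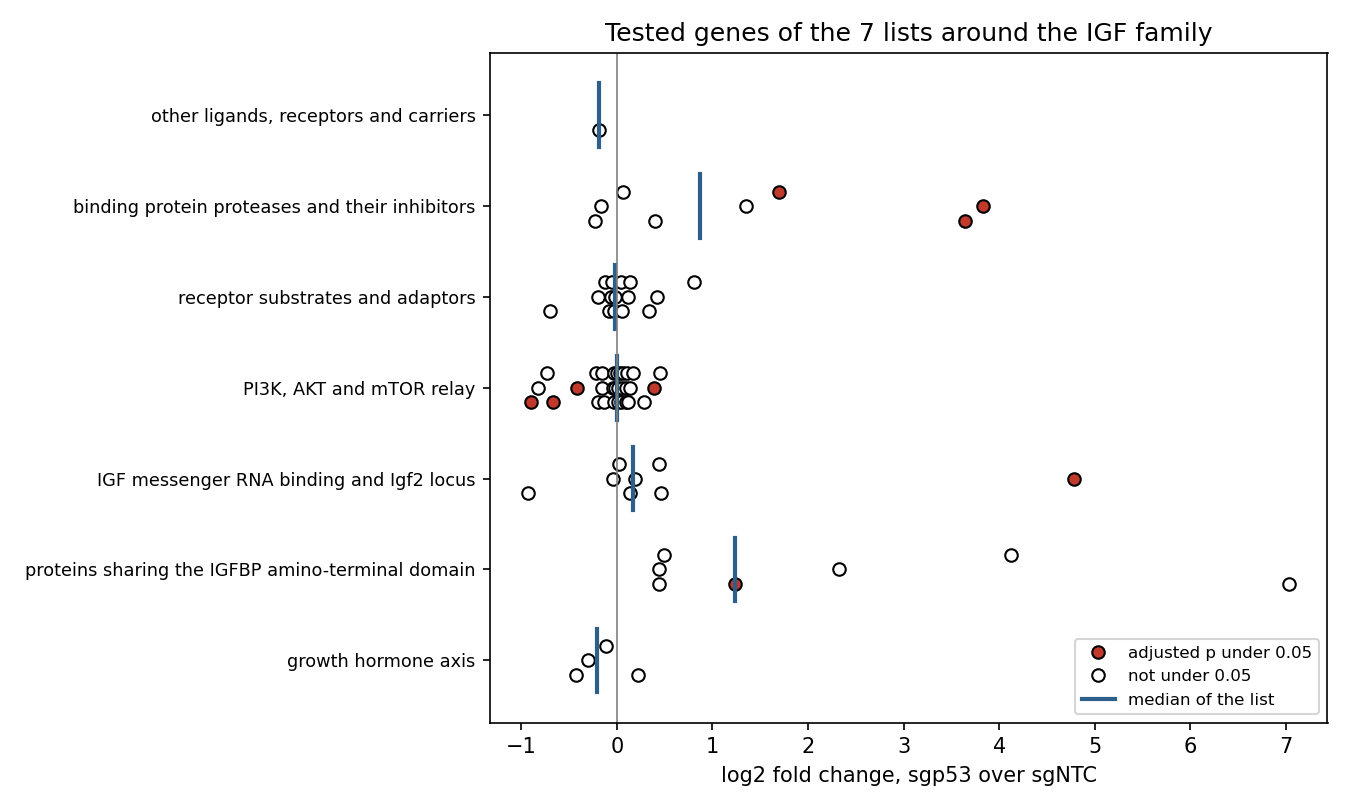
Log2 fold change of sgp53 over sgNTC for the 73 tested genes of the 7 lists, 1 list per row, with genes at an edgeR adjusted p under 0.05 filled, other genes open and the median as a vertical line. The 3 filled proteases lie between 1.69 and 3.83, whereas the 30 genes of the PI3K, AKT and mTOR relay lie within 1 unit of 0. The highest of the 3 is Pappa, from whose call nothing is read.

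Markers of some cell types also differed between sgp53 and sgNTC. Smooth muscle markers summed to 712 to 1093 CPM in sgp53 and 23.1 to 102 CPM in sgNTC, with 3 of 4 higher, also with the line as a block. Fibroblast markers summed to 2987 to 4851 CPM in sgp53 and 2825 to 3424 CPM in sgNTC, a sum that is mostly Vim. Of its 8 tested genes 3 were higher (2 with the line as a block), 7 had a positive fold change, and the median log2 fold change was 3.23. Col1a1, a collagen chain, rose to 459 ± 265 CPM in sgp53, against 8.90 ± 3.72 CPM in sgNTC (edgeR adjusted p = 0.00728, blocked 0.0143). Col1a2, its partner chain, rose to 395 ± 340 CPM in sgp53, against 10.97 ± 6.46 CPM in sgNTC (edgeR adjusted p = 0.021, blocked 0.0478). Both were named after their values were seen. Epithelial markers summed to 88.7 to 132 CPM in sgp53 and 259 to 646 CPM in sgNTC, with 1 of 4 tested genes lower and 0 with the line as a block (Krt18, edgeR adjusted p = 0.0295, blocked 0.0534). Blood and macrophage markers summed to 3.72 to 4.28 CPM in sgp53 and 8.96 to 10.5 CPM in sgNTC, with Cd68 lower as the 1 tested gene and Emr1 at 0. Endothelial markers summed to 1.67 to 1.84 CPM in sgp53 and 1.96 to 2.65 CPM in sgNTC. Adipocyte markers, with Lep at 0, summed to 0.137 to 0.386 CPM in sgp53 and 0.00 to 0.180 CPM in sgNTC. Hepatocyte markers summed to 0.175 to 0.361 CPM in sgp53 and 0.471 to 0.691 CPM in sgNTC. Neural markers summed to 6.59 to 11.7 CPM in sgp53 and 3.96 to 17.6 CPM in sgNTC, and skeletal muscle markers to 1.40 to 2.22 CPM in sgp53 and 1.11 to 1.88 CPM in sgNTC. Chondrocyte markers, with Matn1 at 0, summed to 138 to 158 CPM in sgp53 and 71.4 to 175 CPM in sgNTC. EdgeR called 0 of the 9 tested genes of these 6 lists (5 at an unadjusted p under 0.05, 4 by DESeq2, 0 by limma-voom). With the line as a block it called 1 of them, the chondrocyte marker Col2a1, as higher (edgeR adjusted p = 0.0178). The part of these cell states in the levels of the IGF genes was not tested, and in bulk RNA fewer cells of a type and less RNA per cell cannot be told apart.

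The genes with the most similar pattern were those of highest Pearson r of log2 CPM over the 6 libraries among 12047 genes of at least 1 CPM. For Igf1r they were Pdha1 and Col12a1, for Igfbp7 Psma2 and Kat8, and for Igfbp5 Hnrnph3. For Igf2 they were Nr2f1 and Cdc16, for Igf2r B4galt1 and Cd44, for Igfbp4 Kdelc1 and Dnajb4, and for Igfbp6 Zmynd11 and Mtss1. These values of r lay between 0.989 and 0.998. They describe 6 libraries that share lines and guides and were the highest of many, so no p is given.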

How the data were processed

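RNA was taken from 6 cultures harvested after 24 h at 37 °C in 5% oxygen, with 1 µg per stranded TruSeq library and an RNA integrity number above 8.0, per the labels' protocols. The authors deposited raw read counts per gene symbol, unnormalized. CASAVA 1.8, STAR, DESeq2 and mm10 are listed, without roles, per the submitters' processing notes. Which program counted reads, on which annotation and strand, was not given in the sources used here, and overlapping and antisense reads cannot be told apart.

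From the counts, sgp53 was compared with sgNTC with edgeR 4.0.16 (glmQLFit and glmQLFTest, R 4.3.3), with TMM normalization, filterByExpr on the 2 groups and Benjamini-Hochberg adjustment over 13044 genes, called at 0.05. SE was the coefficient over the square root of F. Differences between lines were tested on the line coefficients in a model of guide plus line. Within-line differences used a prior count of 2. Alternatives were RLE size factors, no filter, DESeq2 1.42.0, limma-voom (limma 3.58.1), the line as a block and left-out libraries or lines. Both tests were tested on simulated data. Positions and start windows are from RefSeq (GRCm38.p6, all 10 genes matched), which mm10 denotes, and exon lengths from GENCODE M21.

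The members and lists were chosen with earlier results of these data known. The members, Trp53 and Cdkn1a are named, and of each list up to 3 called genes of smallest adjusted p, or the 2 tested genes of highest mean CPM where none was called. For each member of at least 1 CPM, the 2 most similar genes are named. Some genes that these rules select are not reported here. The line numbers pair the libraries because both libraries of a number come from the same line, and same-line deviations from the group means correlated at 0.0893, 0.00177 and -0.0272 in lines 1, 2 and 3. No library pair of a group agreed within sampling noise (chi-square per degree of freedom 21.8 to 58). Separate embryos are not stated in the labels for these lines. Without the line as a block, p-values measure the spread among the libraries of a group, 1 per line. In that spread, line, culture and library cannot be told apart. With 3 against 3, an exact permutation test cannot go below 0.1. Intervals cover counting error alone.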

Additional observations from a re-analysis of the deposited data

Results flagged for a closer look

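The sign of the sgp53 minus sgNTC difference in log2 CPM was not the same in the 3 lines for 8 of the members and pathway genes whose levels are given. Rn45s, Sox2, the markers and the genes named for a similar pattern are not counted here. Whether the guide's effect differed between lines was not tested, since each line had 1 library per guide. The test of levels between lines was a different one, and in it edgeR called none of the 7 that were in the fit. Igfbp6 differed by -0.39, -0.27 and 2.70 in lines 1, 2 and 3, a span of 3.09. Igf1, which has few counts, differed by -0.37, 2.14 and 0.83, a span of 2.52. Igf2r differed by -0.01, -0.27 and 0.29, a span of 0.555, and the antisense RNA Airn by 0.02, -0.07 and 0.09, a span of 0.154. Insr, the insulin receptor, differed by -0.31, 0.23 and -0.48, a span of 0.713. The adaptor Grb10 differed by 0.48, -0.02 and 0.60, a span of 0.619, and the adaptor Crk by 0.04, -0.14 and -0.08, a span of 0.187. The growth hormone receptor Ghr differed by 0.02, -0.31 and 0.76, a span of 1.07.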

How the results depend on the processing

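RLE size factors and the fit without a count filter left the counts of calls within 1.5 times. Over all genes 841 were called, against 2367 by DESeq2, 311 with the line as a replicate block, and 19 to 700 with a library or a whole line left out (47, 64 and 19 without line 1, 2 or 3, and 133 without sgNTC line 3). Of the members 3 were called, 4 by DESeq2, 2 by limma-voom and 3 with the line as a block, and 0 to 2 with a library or a line left out: 1 without sgp53 line 1 or 2, 2 without sgp53 line 3, sgNTC line 1 or sgNTC line 2, and 0 without sgNTC line 3 or any line. Of the pathway genes 9 were called, 16 by DESeq2, 3 in the blocked fit and 0 to 8 with a library or a line left out. Between lines edgeR called 0 genes, DESeq2 67, and every left-out library gave 0 to 0. Without a line, 4 libraries remained. The log2 fold changes of Igf1r, Igf2, Igfbp3, Igfbp4, Igfbp5 and Igfbp7 were positive in every alternative that gave one, that of Igfbp6 in 12 of 14 and that of Igf2r in 9 of 14. Igf1 and Igfbp2, with 36 and 39 counts in all, were too shallow for the fit.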
